A study of Homo sapiens with 2 samples.

Results

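The genes described are 10 that protect cells from oxidants and reactive carbonyls: NQO1, HMOX1, GCLM, GCLC, TXNRD1, SRXN1, AKR1C1, AKR1C2, AKR1C3 and AKR1B10. They were taken by symbol from the 60880 rows of the deposited expression table, and all 10 were found. The RNA came from SUM-159, a human cell line established from a triple-negative breast carcinoma. The first library was PD-L1L2-SE deficient, that is, from cells without the super-enhancer tied by the title of the study to PD-L1 and PD-L2 expression. The other was labelled sgVector, the control. Each group was a single library (n = 1), so no difference here could be set against replicate spread, and no source used here says whether the deficient cells were 1 clone or a pool.

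NRF2, the product of NFE2L2, is a transcription factor that KEAP1 holds at low levels by steering it to degradation. Oxidants and electrophiles release it from KEAP1, and it then binds antioxidant response elements together with small MAF proteins, where the repressor BACH1 competes for some sites. Its targets rebuild glutathione and thioredoxin, detoxify quinones and heme, and include aldo-keto reductases that reduce carbonyls and steroids with NADPH. Mutations of the pathway keep these genes on in many carcinomas, and the aldo-keto reductases are widely used as a readout of it in human cells.

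Levels are RPKM as deposited, that is, reads per kilobase per 1000000 reads, and rested on 16381546 gene reads in deficient cells and 16206675 in sgVector cells. The label was checked on CD274, which encodes PD-L1, at 0.698 RPKM in deficient cells and 7.16 in sgVector cells, and on PDCD1LG2, which encodes PD-L2, at 1.19 RPKM in deficient cells and 5.32 RPKM in sgVector cells. All 8 mesenchymal markers of the cell line passed a mean of 1 RPKM, with vimentin (VIM) at 390 RPKM in deficient cells and 746 RPKM in sgVector cells. Of 9 luminal and epithelial markers, 5 passed that floor, with the keratin gene KRT18 at 21.1 RPKM in deficient cells and 28.9 in sgVector cells, KRT8 at 15.5 RPKM in deficient cells and 18.5 in sgVector cells, and ERBB2 at 9.996 RPKM in deficient cells and 7.02 in sgVector cells. The other passing markers, FOXA1 and GATA3, were near the floor. ESR1, PGR, CDH1 and EPCAM were below it, with ESR1, the estrogen receptor gene, at 6 reads in deficient cells and 2 in sgVector cells and CDH1, the E-cadherin gene, at 0 reads in deficient cells and 1 read in sgVector cells. Over 6 leukocyte markers there were 486 reads in deficient cells and 349 in sgVector cells, nearly all from CD14 (476 reads in deficient cells, 337 in sgVector cells). PTPRC had 0 reads in deficient cells and 4 in sgVector cells, and CD3E was at 0 in both. In such bulk RNA, fewer cells of a type and less RNA per cell cannot be told apart.

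Most of the 10 genes were at similar levels in both libraries. On the log2 scale of (RPKM + 0.1), deficient over sgVector, the 9 genes whose mean reached 1 RPKM ran from -0.85 for AKR1C2 to 0.37 for GCLM, with a median of -0.09, against -0.05 over all 13552 genes past that floor. None of the 9 was at least 2-fold higher, where 3.03% of all genes were, and none was at least 2-fold lower, where 4.69% were. The 95% Clopper-Pearson interval of the fold lay wholly above 1 for 2 of the 9 genes and wholly below 1 for 5, against 25.9% (above) and 32.6% (below) of all genes. These intervals cover counting error only, and 73.8% of genes with 1000 reads or more in all excluded 1, so an interval off 1 was the common case. AKR1B10, with 4 reads in all, did not pass the floor.

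**Figure D1:**
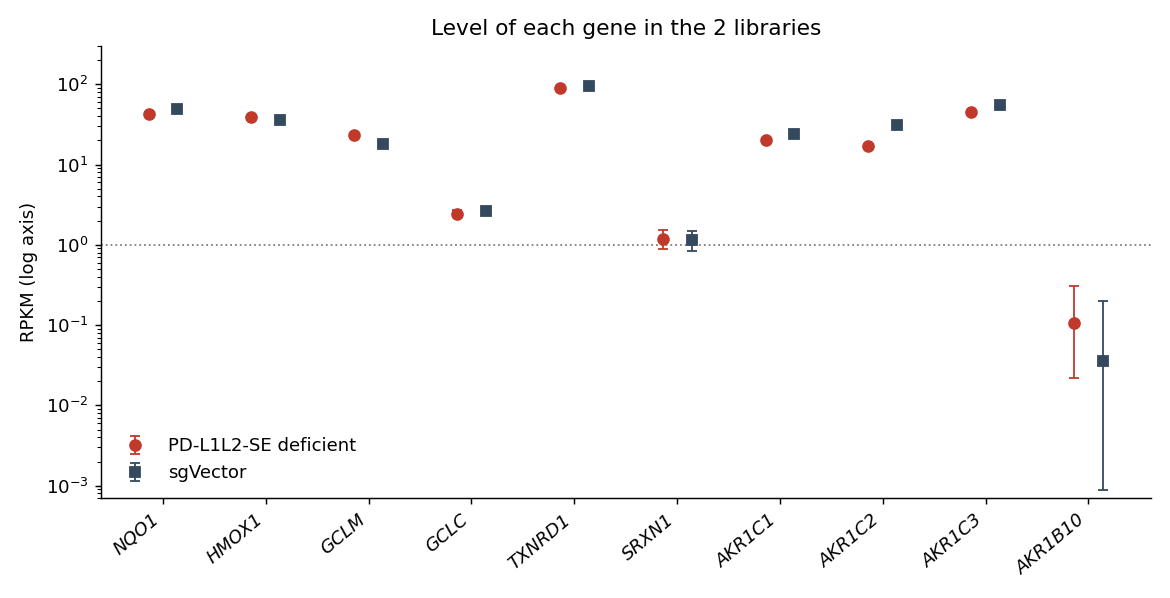
RPKM on a log axis for each of the 10 genes, with red circles for the PD-L1L2-SE deficient library, dark squares for the sgVector library and bars for exact 95% Poisson intervals of the reads (within the symbol where not seen); the dotted line marks 1 RPKM. Levels run up to 90.1 RPKM in deficient cells and 94.7 RPKM in sgVector cells for TXNRD1, and AKR1C2 (17.1 RPKM in deficient cells, 30.9 RPKM in sgVector cells) has the widest gap among the genes past 1 RPKM.

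Control of the pathway was read first. NFE2L2 stood at 31.9 RPKM from 3126 reads in deficient cells and 32.2 RPKM from 3117 reads in sgVector cells, a fold of 0.992 (95% interval 0.944 to 1.04). KEAP1 was at 14.7 RPKM in deficient cells and 13.4 in sgVector cells, a fold of 1.096 (0.996 to 1.21). BACH1 was at 3.01 RPKM in deficient cells and 2.99 RPKM in sgVector cells, a fold of 1.01 (0.872 to 1.17). All 3 intervals spanned 1. The KEAP1 log2 ratio of 0.13 was 0.35 after a lowess correction for GC content and length, past the upper end of its counting interval (0.27), and the sign of the NFE2L2 and BACH1 log2 ratios (-0.01 and 0.01) depended on the scaling. Of 18 measured control genes, 0 were at least 2-fold higher, where 3.03% of all genes were, or lower, where 4.69% were. The median of the control genes was 0.01. The highest were FBXW11 (0.72), which encodes a ubiquitin ligase subunit that can target NRF2 apart from KEAP1, NFE2L1 (0.43), the gene of the related factor NRF1, and SQSTM1 (0.39), which encodes the autophagy receptor p62 that binds KEAP1. The lowest were MAFK (-0.55), a small MAF partner, RBX1 (-0.51), a subunit of the ligase built on KEAP1, and GSK3B (-0.44), the kinase that marks NRF2 for the FBXW11 family.

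Glutathione synthesis starts with glutamate-cysteine ligase, made of the catalytic subunit GCLC and the modifier subunit GCLM. In hg19 coordinates GCLM (ENSG00000023909) lies on the minus strand at chr1:94350761-94375012 and GCLC (ENSG00000001084) on the minus strand at chr6:53362139-53481768. GCLM was at 23.5 RPKM from 2087 reads in deficient cells and 18.1 RPKM from 1593 reads in sgVector cells, 1.296-fold higher (1.21 to 1.38). GCLC was at 2.45 RPKM from 347 reads in deficient cells and 2.60 RPKM from 365 reads in sgVector cells, a fold of 0.941 (0.81 to 1.09), whose interval spanned 1. GCLM was thus the highest of the 9 log2 ratios, above 83.9% of all genes, and the RPKM of GCLM was 9.59 times that of GCLC in deficient cells and 6.96 times in sgVector cells.

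Thioredoxin reductase 1 (TXNRD1) reduces thioredoxin with NADPH, and sulfiredoxin (SRXN1) repairs overoxidised peroxiredoxins. TXNRD1 (ENSG00000198431, chr12:104609557-104744083, plus strand, hg19) was the most abundant of the 10 genes per length, at 90.1 RPKM from 9906 reads in deficient cells and 94.7 RPKM from 10296 reads in sgVector cells. Its fold was 0.952 (0.926 to 0.979), and with trimmed mean of M values (TMM) scaling the log2 ratio of -0.07 went to 0.00. SRXN1 (ENSG00000271303, chr20:627259-634014, minus strand, hg19) was at 1.18 RPKM from 52 reads in deficient cells and 1.14 RPKM from 50 reads in sgVector cells, a fold of 1.03 (0.684 to 1.55). A read-through gene on the same strand, listed at 0 reads, covers 85.0% of the exonic bases of SRXN1, and no source used here says how reads on shared bases were assigned, so the level of SRXN1 is uncertain.

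NQO1 reduces quinones by 2 electrons, and HMOX1 is the inducible heme oxygenase that opens the heme ring and frees its iron. NQO1 (ENSG00000181019, chr16:69740899-69760854, minus strand, hg19) was at 43.1 RPKM from 2300 reads in deficient cells and 49.2 RPKM from 2593 reads in sgVector cells, a fold of 0.878 (0.829 to 0.929). HMOX1 (ENSG00000100292, chr22:35776354-35790207, plus strand, hg19) was at 38.7 RPKM from 1524 reads in deficient cells and 35.8 RPKM from 1395 reads in sgVector cells, a fold of 1.08 (1.004 to 1.16). Both stood among the upper 10% of genes past the floor in each library, with between 90.7% and 93.7% of genes below them in level. The ratios of both lay within the middle 50% of all genes, which ran from -0.33 to 0.23 on the log2 scale.

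Base composition moved with the ratios across the libraries. Protein-coding genes in the fifth of lowest GC content had a median log2 ratio of 0.14 and those in the fifth of highest GC content -0.20. The longest GCLM transcript has 37.3% GC and that of HMOX1 58.1%. After a lowess correction for GC content and then for length, GCLM went from 0.37 to 0.22 and HMOX1 from 0.11 to 0.35. The correction reverses the order of these genes. Both corrected values lay outside the counting intervals of the log2 fold (0.28 to 0.47 for GCLM, 0.006 to 0.22 for HMOX1).

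**Figure D2:**
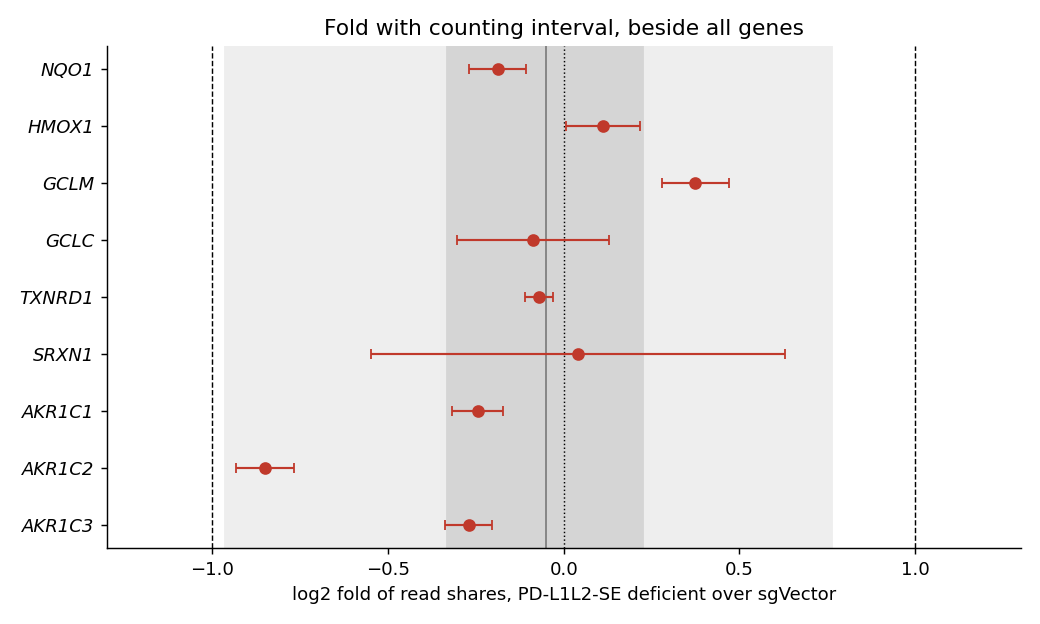
Log2 fold of the read shares, PD-L1L2-SE deficient over sgVector, for the 9 genes past 1 RPKM, with 95% Clopper-Pearson intervals as bars. The light band holds the central 90% of the log2 ratios of all genes past the floor (-0.97 to 0.76), the darker band the central 50% (-0.33 to 0.23), the grey line their median and the dashed lines 2-fold; AKR1C2 lies apart from the other 8 genes and GCLM is the only one above the darker band.

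GCLM and TXNRD1 carry a match to the core of the antioxidant response element close to their start. The core was searched as TGACNNNGC on both strands of the 300-base RefSeq promoters (GRCh38.p14, 250 bases before to 50 after the start), of which 8 of the 10 genes had an entry, and shares were taken over the entry listed first for each gene. It was found in 2 of these 8, GCLM and TXNRD1, and in 13.6% of 27305 promoters. Sequence outside these 300 bases was not searched, so a gene without a match here may hold one elsewhere. The match in GCLM begins 34 bases before the start and reads TGACTAAGC on the opposite strand, and those in the promoter of TXNRD1 listed first begin 99 and 8 bases before the start and read TGACTTCGC on the gene's strand and TGACGGAGC on the other. TXNRD1 has another promoter entry, at chr12:104286782-104287081, with a match on the opposite strand that begins 102 bases before that start. None of these matches in GCLM and TXNRD1 also holds the AP-1 motif TGANTCA, which lies within the match of 0.564% of all promoters. The stretches from 110 bases before the start to the start base are shown with the matches in capitals, GCLM at chr1:93909430-93909540 (minus strand) and TXNRD1 at chr12:104215669-104215779 (plus strand).
GCLM: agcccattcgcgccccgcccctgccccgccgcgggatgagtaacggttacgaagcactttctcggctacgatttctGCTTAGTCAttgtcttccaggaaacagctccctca
TXNRD1: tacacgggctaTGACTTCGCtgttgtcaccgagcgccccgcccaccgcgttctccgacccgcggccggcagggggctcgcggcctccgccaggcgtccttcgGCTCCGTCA
The log2 ratios of these genes were 0.37 for GCLM and -0.07 for TXNRD1. Of the other genes that NRF2 is known to drive, 8 of 22 with an entry held the core, against 3 of 16 control genes, 1 of 9 other aldo-keto reductases and 5 of 42 other antioxidant enzymes. A match is a description of these letters and not a binding site.

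The largest difference among the 9 genes past the floor was in the AKR1C cluster at chromosome 10p15, whose enzymes reduce ketosteroids, prostaglandins and lipid aldehydes. AKR1C1 inactivates progesterone, AKR1C2 inactivates dihydrotestosterone and AKR1C3 makes testosterone and prostaglandin F. AKR1C2 (ENSG00000151632, chr10:5029592-5060223, minus strand, hg19) was at 17.1 RPKM from 1815 reads in deficient cells and 30.9 RPKM from 3238 reads in sgVector cells, 1.80-fold lower (1.70 to 1.91). Its log2 ratio was -0.85, and 6.69% of all genes past the floor had a lower one. Among well-covered genes, 97 of 6457 genes with 1000 reads or more in all had a lower one. A threshold of 1.5-fold lower was passed by AKR1C2 alone among the 9 genes, where 12.6% of all genes passed it, and 5.37% of those with 1000 reads or more.

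AKR1C1 and AKR1C3 were lower by less. AKR1C1 (ENSG00000187134, chr10:5005445-5025475, plus strand, hg19) was at 20.4 RPKM from 2927 reads in deficient cells and 24.2 RPKM from 3432 reads in sgVector cells, 1.19-fold lower (1.13 to 1.25). AKR1C3 (ENSG00000196139, chr10:5077546-5149878, plus strand, hg19) was at 45.5 RPKM from 3376 reads in deficient cells and 54.9 RPKM from 4030 reads in sgVector cells, 1.21-fold lower (1.15 to 1.26). All 3 log2 ratios stayed below 0 under every scaling tried. With their reads added, the trio had 8118 reads in deficient cells and 10700 in sgVector cells and was 1.33-fold lower (1.29 to 1.37).

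The division of reads within the trio differed between the libraries beyond counting error. AKR1C2 took 22.4% of the trio's reads in deficient cells (exact binomial interval 21.5 to 23.3) and 30.3% in sgVector cells (29.4 to 31.1). AKR1C1 took 36.1% (35.0 to 37.1) in deficient cells and 32.1% (31.2 to 33.0) in sgVector cells. Per length, AKR1C2 was at 0.841 times the level of AKR1C1 in deficient cells and 1.28 times in sgVector cells. The order of this pair thus turned round per length but not by reads, where AKR1C1 had the larger share in both libraries. AKR1C3 was, per length, at 2.23 times AKR1C1 in deficient cells and 2.27 times in sgVector cells.

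**Figure D3:**
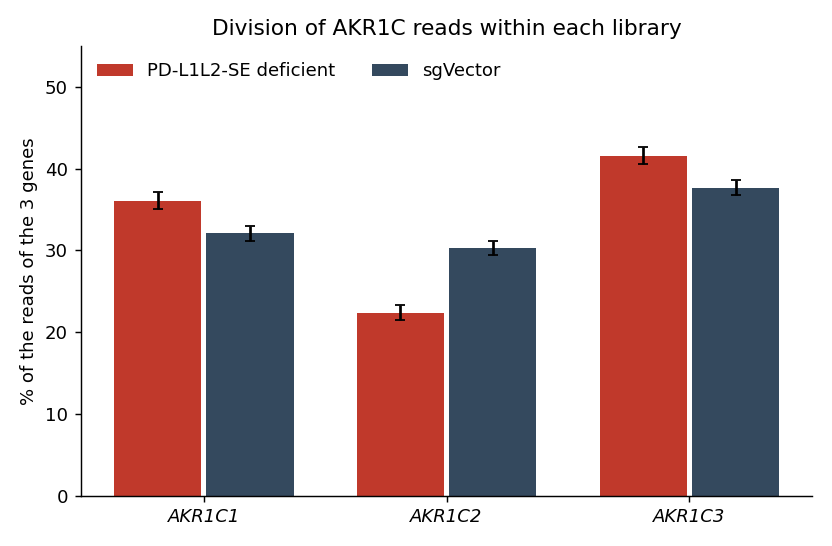
Share of the reads of AKR1C1, AKR1C2 and AKR1C3 together that fell on each gene, in percent, with red bars for the PD-L1L2-SE deficient library, dark bars for the sgVector library and lines for exact 95% binomial intervals. The AKR1C2 share is 22.4% in deficient cells and 30.3% in sgVector cells, and the other genes take larger shares in deficient cells.

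These genes are close copies, which limits the split between them. Over the 969 coding bases of GENCODE release 29, AKR1C1 and AKR1C2 differ at 19 positions (98.0% identical), and AKR1C3 differs from AKR1C1 at 83. Of all 50-base windows of the coding sequence, 54.3% in AKR1C1, 57.1% in AKR1C2 and 23.0% in AKR1C3 also occur in a transcript of another gene. For 100-base windows the shares were 20.7%, 26.4% and 9.77%. No source used here gives the read length or the handling of reads with several matches. The level of each of the 3 genes is therefore uncertain. Their sum is the firmer value only if shared reads were counted on 1 of the 3 genes, and whether they were is not known. The first 90 coding bases show how alike they are, with capitals at bases that differ from AKR1C1.
AKR1C1: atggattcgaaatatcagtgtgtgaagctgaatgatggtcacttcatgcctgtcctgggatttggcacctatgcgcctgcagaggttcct
AKR1C2: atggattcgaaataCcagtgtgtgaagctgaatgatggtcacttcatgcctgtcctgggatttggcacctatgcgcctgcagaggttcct
AKR1C3: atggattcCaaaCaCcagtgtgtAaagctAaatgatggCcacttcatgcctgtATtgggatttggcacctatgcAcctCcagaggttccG
In this stretch AKR1C2 differs from AKR1C1 at 1 base and AKR1C3 at 11.

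The likeness of AKR1C1 and AKR1C2 extends to the sequence before their starts. The RefSeq promoters of AKR1C1 and AKR1C2 aligned over 292 bases with 4 mismatches and 4 gap bases (98.6% of aligned bases identical). The same stretches as above are at chr10:4963305-4963415 (plus strand) for AKR1C1 and chr10:5003857-5003967 (minus strand) for AKR1C2, in GRCh38.p14, and hold no match to TGACNNNGC.
AKR1C1: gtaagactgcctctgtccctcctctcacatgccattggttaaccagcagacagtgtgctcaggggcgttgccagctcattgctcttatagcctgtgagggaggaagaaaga
AKR1C2: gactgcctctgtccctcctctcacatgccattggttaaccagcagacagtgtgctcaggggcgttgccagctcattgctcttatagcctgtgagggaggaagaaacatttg
AKR1C2, 1.80-fold lower in deficient cells, and AKR1C1, 1.19-fold lower, thus carry nearly the same letters in this window.

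AKR1B10, an aldose reductase relative of the intestine that is often induced in carcinomas, was near the limit of detection. AKR1B10 (ENSG00000198074, chr7:134212344-134226160, plus strand, hg19) had 3 reads in deficient cells and 1 in sgVector cells, a fold of 2.97 with a counting interval of 0.238 to 156. Its levels were 0.105 RPKM (0.0217 to 0.307) in deficient cells and 0.0354 RPKM (0.000896 to 0.197) in sgVector cells. A difference was not detectable at this depth. AKR1B10 shares 28.5% of its 50-base coding windows with transcripts of other genes, so its level is also uncertain beyond counting error. Its neighbour and relative AKR1B1, aldose reductase, was at 833 RPKM in deficient cells and 945 in sgVector cells, 1.13-fold lower (1.12 to 1.15).

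Other aldo-keto reductases past the floor ran from a log2 ratio of -1.02 to 0.52, and the rest had few reads. Of 12 found in the table, 6 passed the floor, 5 of them with a log2 ratio below 0, where 7518 of all 13552 genes were, and with a median log2 ratio of -0.39, against -0.05 over all genes. This median was -0.21 after the GC and length correction, -0.15 at a floor of 5 RPKM, -0.18 at a floor of 0.5 RPKM and -0.18 with no floor. Of the 6 past the floor, 1 was at least 2-fold lower, where 4.69% of all genes were, and 0 higher, where 3.03% were. AKR1E2, at 1.24 RPKM from 49 reads in deficient cells and 2.60 RPKM from 102 reads in sgVector cells, was 2.10-fold lower (1.48 to 3.02), and TMM, upper-quartile or median scaling, the GC and length correction and a pseudocount of 1 each brought it short of 2-fold. AKR7A3, an aflatoxin aldehyde reductase, had 20 reads in deficient cells and 42 in sgVector cells and a log2 ratio of -0.99. AKR1A1, an aldehyde reductase of broad range, was at 20.5 RPKM in deficient cells and 31.2 in sgVector cells, 1.52-fold lower (1.40 to 1.65). AKR1B1 and AKR7A2 stood at -0.18 and -0.12, and the GC and length correction took AKR1B1 to -0.03 and AKR7A2 to 0.15. At the other end was KCNAB2, a potassium channel subunit of the same fold, at 0.52.

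Genes outside the 10 that NRF2 is known to drive lay on both sides of 0. Of 35 listed, 29 passed the floor, with a median log2 ratio of 0.00, 14 above 0 and 15 below 0. At least 2-fold higher were 2, CES1 and FTH1, where 3.03% of all genes were, and 1 was at least 2-fold lower, PANX2, where 4.69% of all genes were. The remaining 26 lay between -0.39 for TRIM16 and 0.45 for FECH, with SLC48A1, a heme transporter gene, at -0.37. FECH encodes ferrochelatase, the last enzyme of heme synthesis. Among those close in role to the 10, the cystine carrier gene SLC7A11 stood at 0.23, the glutathione reductase gene GSR at 0.09, the thioredoxin gene TXN at 0.03 and the peroxiredoxin gene PRDX1 at -0.22 (named for their role after their values were seen).

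FTH1, the ferritin heavy chain that stores iron, had by far the most reads among genes at least 2-fold apart in these lists. FTH1 (ENSG00000167996) was at 3084 RPKM from 102549 reads in deficient cells and 1101 RPKM from 36207 reads in sgVector cells, 2.80-fold higher (2.77 to 2.84). Its partner, the light chain gene FTL, was at 4333 RPKM in deficient cells and 3671 in sgVector cells, 1.18-fold higher (1.17 to 1.19). The RPKM of FTH1 was 0.712 times that of FTL in deficient cells and 0.30 times in sgVector cells. FTH1 has many processed copies in the genome, and 77.8% of the 50-base windows of its coding sequence occur in transcripts of other genes. The 25 numbered copies held 132550 reads in deficient cells and 52901 in sgVector cells, 2.48-fold higher (2.45 to 2.50). With these reads added to FTH1, the fold was 2.61 (2.59 to 2.63), and the sum was 1.44% of the reads on genes in deficient cells and 0.55% in sgVector cells. The annotated exons of BEST1 on the opposite strand cover 62.4% of the FTH1 exonic bases, and BEST1 had 26 reads in deficient cells and 29 in sgVector cells.

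CES1, a carboxylesterase that NRF2 can induce, was at 48.0 RPKM from 2309 reads in deficient cells and 3.17 RPKM from 151 reads in sgVector cells, 15.1-fold higher (12.8 to 17.96). Its pseudogene rows held 238 reads in deficient cells and 57 in sgVector cells, and 40.4% of its 50-base coding windows occur in their transcripts. PANX2, a pannexin channel gene, was at 2.03 RPKM from 103 reads in deficient cells and 4.46 RPKM from 224 reads in sgVector cells, 2.20-fold lower (1.73 to 2.80). The PANX2 log2 ratio of -1.10 was -0.79 after the GC and length correction and -0.85 with a pseudocount of 1, both short of 2-fold.

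Further antioxidant enzymes showed no gene at least 2-fold higher (3.03% of all genes) or lower (4.69%) among 42 measured, with a median of -0.02. The highest were NNT (0.67), the mitochondrial transhydrogenase that makes NADPH, OPLAH (0.60), which returns oxoproline to glutamate, and SESN1 (0.47), a sestrin. The lowest were TXNRD2 (-0.73), the mitochondrial relative of TXNRD1, GLRX5 (-0.50), a mitochondrial glutaredoxin of iron-sulfur cluster assembly, and GSTZ1 (-0.45), a glutathione transferase of tyrosine breakdown. TXNRD2 was at 6.44 RPKM from 884 reads in deficient cells and 10.8 RPKM from 1461 reads in sgVector cells, 1.67-fold lower (1.54 to 1.82).

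Of the 18 listed genes below the floor with at least 1 read, the counting interval of the fold lay wholly above 1 for 3 (CYP4F11, GPX3 and SESN3) and wholly below 1 for 4 (AKR1C4, KCNAB3, GSTM2 and GSTO2), and spanned 1 for 11. Over all genes below the floor with a read these shares were 3.64% (above) and 5.7% (below). They were not matched for depth and take in genes with only 1 read, so they give no close comparison with the listed genes. GPX3, the plasma glutathione peroxidase gene, had 25 reads in deficient cells and 8 in sgVector cells, 3.09-fold higher (1.35 to 7.93), and CYP4F11, a cytochrome P450 gene of the NRF2 list, had 29 reads in deficient cells and 13 in sgVector cells, 2.21-fold higher (1.11 to 4.62). AKR1C4, the liver member of the AKR1C cluster, had 1 read in deficient cells and 10 in sgVector cells. Its fold was 0.0989 with a counting interval of 0.00228 to 0.695. Of its 50-base coding windows 17.6% also occur in transcripts of other genes, mainly its cluster relatives, so these few reads are uncertain beyond counting error. KCNAB3, a potassium channel subunit of the aldo-keto reductase fold, had 12 reads in deficient cells and 52 in sgVector cells, 4.38-fold lower (2.31 to 9.02). AKR1B15, the close relative of AKR1B10, had 12 reads in deficient cells and 14 in sgVector cells, a fold of 0.848 (0.358 to 1.98).

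**Figure D4:**
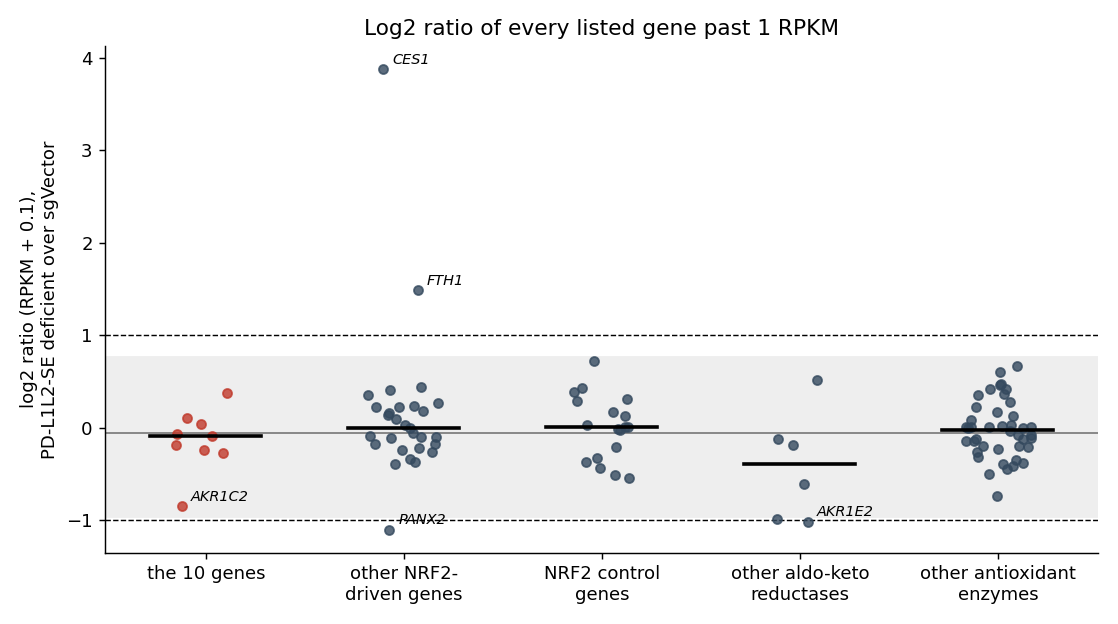
Log2 ratio of (RPKM + 0.1), PD-L1L2-SE deficient over sgVector, for every listed gene whose mean reached 1 RPKM, with black bars for list medians, a grey band for the central 90% of all genes, a grey line for their median and dashed lines at 2-fold. CES1 (3.88) and FTH1 (1.49) lie above 2-fold, PANX2 (-1.10) and AKR1E2 (-1.02) below it, and AKR1C2 (-0.85) is the lowest of the 10 genes.

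The chromosomal neighbours of each gene were set beside it, with the 10 genes themselves left out of every set of neighbours. The 9 other protein-coding genes past the floor within 1 Mb of AKR1C1 and AKR1C2 had a median log2 ratio of -0.33. They ran from -1.02 (AKR1E2) to 0.04 (ASB13), and the median over 24 genes within 5 Mb was -0.36. AKR1C1 (-0.24) and AKR1C3 (-0.27) lay inside that range near its median, and AKR1C2 (-0.85) lay below 8 of its 9 neighbours. Around SRXN1 14 neighbours had a median of -0.49, below SRXN1 itself (0.04), and around TXNRD1 13 neighbours had -0.31, below TXNRD1 (-0.07). The medians were -0.13 around GCLM (12 genes), -0.10 around HMOX1 (10 genes), -0.07 around NQO1 (24 genes) and 0.15 around GCLC (8 genes), and GCLM (0.37) lay above the median of its neighbours. Within 5 Mb the medians were 0.10 around GCLM, where the sign turned, -0.32 around HMOX1, -0.15 around NQO1, 0.03 around GCLC, -0.16 around TXNRD1 and -0.42 around SRXN1. The part of the neighbourhood in any of these ratios was not tested.

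**Figure D5:**
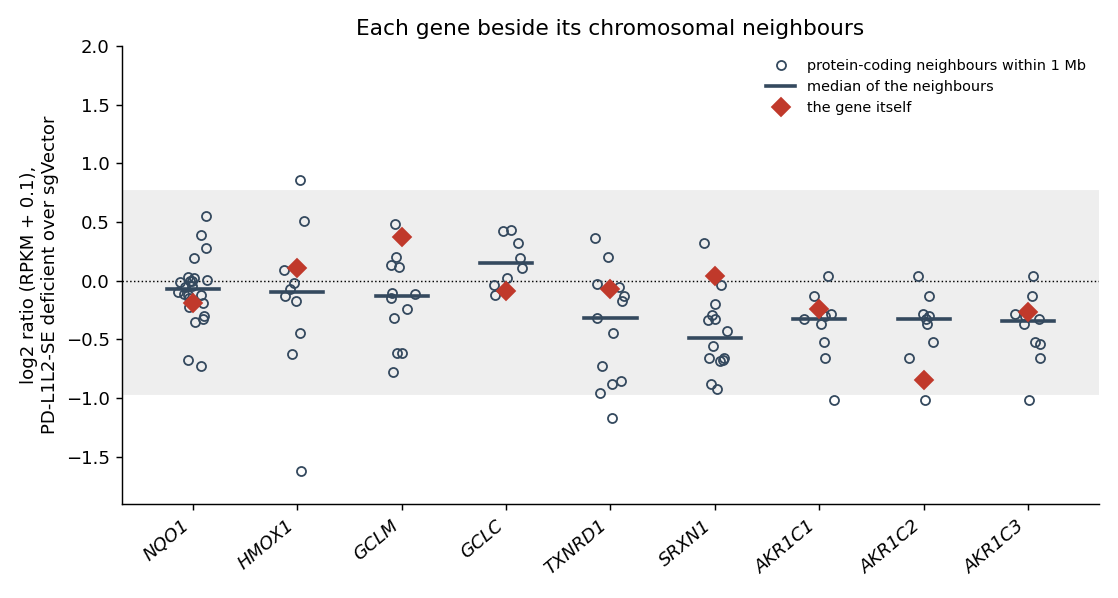
Log2 ratio of (RPKM + 0.1), PD-L1L2-SE deficient over sgVector, of each gene past 1 RPKM (red diamond), of its protein-coding neighbours within 1 Mb (open circles) and their median (bar); the band holds the central 90% of all genes. The 10 genes themselves are left out as neighbours. AKR1C1 and AKR1C3 lie near the medians of their neighbours (-0.33 and -0.35), AKR1C2 (-0.85) lies below its own and GCLM (0.37) above its own (-0.13).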

How the data were processed

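Poly(A) RNA of SUM-159 cells was sequenced, 1 PD-L1L2-SE deficient library and 1 sgVector library. The tools named, per the submitters' processing notes, are Subread and featureCounts 1.6.4, and the builds GRCh37 and hg19; no source used here gives the aligner settings, annotation release or strand setting. The authors deposited RPKM and gene length, per the file headers. Their product came in whole reads (100% of values, tolerance 1e-06 reads), which gave the reads, the 95% Clopper-Pearson intervals of the fold and the Poisson intervals. The reads have no molecular identifiers and PCR copies are not independent, so all intervals cover counting error only. Taken one-sided, a value of 0 allows up to 3 reads, and the upper ends of the two-sided Poisson intervals lie above that.

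Symbols came from a gene name table and GENCODE release 29, which matched 93.4% of identifiers. The 41 pseudoautosomal rows of chromosome Y were left out, and SOD2, whose symbol matched 2 rows, was not used. The log2 ratio used a pseudocount of 0.1 RPKM, which understates the change of low genes, and a floor of a mean of 1 RPKM. Folds are ratios of read shares without it. Named genes were the 10, CD274, PDCD1LG2, NFE2L2, KEAP1, BACH1, and in each list the 3 highest, the 3 lowest and those at least 2-fold apart, among genes past the floor. Others named outside this rule included cell type markers, FTL, AKR1B15, SLC7A11, GSR, TXN, PRDX1 and the FTH1 copies. Genes below the floor whose counting interval excluded 1 were named for that outcome. Members and lists were chosen with earlier results of these data known. No p-values were computed. Alternatives were other pseudocounts, floors, thresholds, scalings, a GC and length correction (lowess, share 0.3) and a 5 Mb window. The log2 ratios, the intervals of the fold and the TMM factor were tested on simulated counts with Poisson error only. The software was Python 3.11.15 with scipy 1.17.1, numpy 2.4.6, matplotlib 3.10.9, pandas 2.3.3 and statsmodels 0.14.6.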

Additional observations from a re-analysis of the deposited data

How the results depend on the processing

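No paired analysis was possible because there was 1 library per group. The number of the 10 genes at least 2-fold higher was 0 under all 15 alternatives, including the whole interval past 2-fold, and the number lower was 0 except at 1.5-fold, where it was 1 (AKR1C2), as the lower threshold itself admits it. The median of the 9 genes past the floor, -0.09, was -0.012 with TMM scaling, -0.13 with the GC and length correction and -0.19 over those past 5 RPKM; over all 10 without a floor it was -0.08. The summed AKR1C log2 fold of -0.41 was -0.34 with TMM, -0.37 as TPM, -0.36 centred on the median and -0.52 with the GC and length correction; the cause was not tested. AKR1C2 ranged from -0.98 to -0.77 and GCLM from 0.22 to 0.45. Of 80 values of the 10 genes under alternatives, 11 lay outside the counting interval. The sign turned for TXNRD1 alone, from -0.07 to 0.005 with TMM. AKR1B10, below the floor, passed 2-fold with a pseudocount of 0.01 (1.34 against 0.60). The PANX2 call ended with a pseudocount of 1 (-0.85) and the GC and length correction (-0.79), and 2 aldo-keto reductases past the floor were at least 2-fold lower as TPM, without mitochondrial genes or with a pseudocount of 0.01, against 1. With no floor 3 were. Adding the reads of the copies to FTH1, chosen after seeing the data, gave a log2 fold of 1.38 against 1.49. Over all genes 411 were higher and 636 lower at 2-fold, 215 and 344 when the pseudocount was 1, 115 and 152 when the floor was 5 RPKM, 642 and 1138 when it was 0.5, 2575 and 3711 without it, 1123 and 1703 at 1.5-fold, 85 and 131 at 4-fold, and 165 and 160 by the interval. Depth limits AKR1B10, with 4 reads, and SRXN1, with 102.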

Other observations

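Reads listed on FTH1 copies were spread over several rows, and the 4 copies with the most reads, on chromosomes X, 1, 2 and 13, were each higher in deficient cells. FTH1P8 had 48181 reads in deficient cells and 22294 in sgVector cells, a fold of 2.14 (2.10 to 2.17). FTH1P20 had 23021 reads in deficient cells and 6518 in sgVector cells, a fold of 3.49 (3.40 to 3.59). FTH1P2 and FTH1P7 had folds of 2.58 (2.53 to 2.63) and 2.63 (2.54 to 2.72). Copies of FTL held 1486 reads in deficient cells and 1496 in sgVector cells, a fold of 0.983 (0.914 to 1.06).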
